A study of Mus musculus with 4 samples.

Results

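Matrix proteases and their inhibitors were followed in muscle satellite cells after loss of the calcitonin receptor. The genes are Mmp2, Mmp14, Adamts1, Adamts5, Timp1, Timp2 and Timp3, chosen by name, and every probe set that the array's annotation assigns to 1 of them was taken. That gave 21 probe sets for 7 genes, of 18193 genes named on the array. Satellite cells are the resident stem cells of skeletal muscle. They were sorted as YFP-positive cells from 10-week-old mice, 2 weeks after tamoxifen, and were not cultured. The 2 Calcr-cKO samples came from mice of the genotype Pax7Cre/+, Calcr flox/flox and Rosa-YFP/YFP, in which Cre expressed from Pax7 (CreERT2, active with tamoxifen) deletes the calcitonin receptor gene Calcr in satellite cells. The 2 control samples came from Pax7Cre/+, Calcr +/+ and Rosa-YFP/YFP mice. Both groups thus carried the Cre and the reporter and received tamoxifen. Each of the 4 samples was hybridised to 1 array, and no number of mice per sample is stated in the sources used here. The question is which transcripts differ between cells without and cells with an intact Calcr.

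Metalloproteinases cut the proteins of the extracellular matrix, and satellite cells sit in a niche between the fibre membrane and the basal lamina that is built from such proteins. Mmp2 encodes a secreted gelatinase that is made as an inactive proenzyme. Mmp14 encodes a membrane-anchored collagenase, and at the cell surface it activates the Mmp2 product with the help of Timp2 protein. The ADAMTS enzymes are secreted proteases, and those encoded by Adamts1 and Adamts5 cut large proteoglycans such as versican and aggrecan. The Timp genes encode tissue inhibitors of metalloproteinases. Timp1 protein is a weak inhibitor of Mmp14, while Timp3 protein binds to the matrix and also inhibits ADAM and ADAMTS enzymes.

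Promoter windows of RefSeq on GRCm38.p6, from 250 bases before to 50 bases after the start of a gene, were found for 5 of the 7 genes. Each was searched on both strands for the cAMP response element half-site TGACG, the AP-1 site TGANTCA, the TATA box TATAAA and the GC box GGGCGG, none of which overlapped another in these windows. The calcitonin receptor is known to raise cAMP, which is why the first motif was included. Timp2 (chr11:118355362-118355661, minus strand) and Timp3 (chr10:86300162-86300461, plus strand) are shown because their signals differed in opposite directions between control arrays 1 and 2. Between the Calcr-cKO arrays Timp2 was nearly level. Adamts1 (chr16:85803064-85803363, minus strand) is shown because it alone of the 5 held both a TATA box and a cAMP half-site. The 3 windows read 5′ to 3′ along the gene, and capitals mark the motifs found on either strand.
Adamts1: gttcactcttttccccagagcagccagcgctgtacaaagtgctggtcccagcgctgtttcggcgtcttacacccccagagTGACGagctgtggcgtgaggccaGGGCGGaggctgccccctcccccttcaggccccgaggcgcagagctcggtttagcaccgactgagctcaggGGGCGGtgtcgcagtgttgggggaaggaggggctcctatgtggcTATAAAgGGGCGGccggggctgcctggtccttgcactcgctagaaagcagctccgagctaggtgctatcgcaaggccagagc
Timp2: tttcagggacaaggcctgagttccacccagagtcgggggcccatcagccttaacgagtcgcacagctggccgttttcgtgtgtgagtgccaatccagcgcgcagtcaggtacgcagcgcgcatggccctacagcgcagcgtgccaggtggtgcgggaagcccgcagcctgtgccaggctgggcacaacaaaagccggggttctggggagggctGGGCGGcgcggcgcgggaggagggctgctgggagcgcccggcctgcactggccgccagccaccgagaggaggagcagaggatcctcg
Timp3: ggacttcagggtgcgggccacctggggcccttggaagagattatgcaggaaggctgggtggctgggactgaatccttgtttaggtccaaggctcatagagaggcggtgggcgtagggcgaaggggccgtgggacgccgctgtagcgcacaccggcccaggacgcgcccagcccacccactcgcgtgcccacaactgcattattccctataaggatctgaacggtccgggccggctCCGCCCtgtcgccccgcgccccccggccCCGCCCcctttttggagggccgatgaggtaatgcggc
The Adamts1 window held 1 cAMP half-site, 1 TATA box and 3 GC boxes. The Timp2 window held 1 GC box and the Timp3 window 2, with no other motif. Of the windows not shown, that of Timp1 held 1 cAMP half-site and 1 GC box, and that of Mmp14 held 2 GC boxes. No AP-1 site was found in these 5 windows. Over 32851 RefSeq promoter windows of the same length, 20.8% held the cAMP half-site, 7.81% the AP-1 site, 13.6% the TATA box and 35.7% the GC box.

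The arrays had the following properties. Median signals were 68.8 and 57.9 on Calcr-cKO arrays 1 and 2, and 70.4 and 64.4 on control arrays 1 and 2. The numbers are the replicate numbers of the titles. Calcr itself read 568 and 684 on the Calcr-cKO arrays, against 1268 and 1424 on the control arrays, so its signal went in the direction of the labels. Its log2 difference was -1.11 with an SE of 0.25. The adjusted limma p of Calcr was 0.99999, so the deleted gene itself did not pass the test. The sources used here do not state whether its probe set lies in the deleted part. All 12 satellite cell markers passed the filter on dim probe sets. The filter kept probe sets whose mean log2 value reached the overall median, equal to a signal of 63.9. Shares of all probe sets are given over the 22519 that it kept. The satellite cell markers summed to 23704 and 25533 on the Calcr-cKO arrays, against 24228 and 34818 on the control arrays. Of the 12, 11 had a log2 difference below 0 and 1 above, against 58.9% of all probe sets below 0. For 3, Calcr, Sdc4 and Chrdl2, both Calcr-cKO arrays lay below both control arrays, against 13.5% of all probe sets. Calcr is the gene deleted by design, and it counts among both the 11 and the 3. The median of the 12 was 0.05 between the arrays numbered 1 and -0.50 between those numbered 2. Endothelial markers stood apart by replicate number: their summed signal over 16 genes was 10628 and 2587 on Calcr-cKO arrays 1 and 2, and 11910 and 2442 on control arrays 1 and 2. Pericyte and smooth muscle markers did so to a lesser degree, with sums over 12 genes of 21156 and 10382 on the Calcr-cKO arrays, against 18455 and 13044 on the control arrays. Of 12 fibroblast and fibro-adipogenic markers 9 passed the filter, with Col3a1, Gsn, Dpt and Dcn among the bright ones, and Pdgfra, Pi16 and Clec3b did not. Their summed signal was 22944 and 25327 on the Calcr-cKO arrays, against 21138 and 27321 on the control arrays. Of 22 leukocyte markers 8 passed, 7 of them with a log2 difference below 0 (median -1.19), against 58.9% of all probe sets. Of the 8, 2 were lower in Calcr-cKO without overlap, Fcer1g and Laptm5, against 13.5% of all probe sets. Some of the 8 passed the filter through high control values, such as H2-Eb1, at 59.8 and 42.8 in Calcr-cKO and 40.6 and 222 in control. These counts are therefore no evidence of a difference. The median of the 8 was 0.30 between the arrays numbered 1 and -2.75 between those numbered 2. The leukocyte sum over all 22 was 1941 and 824 on the Calcr-cKO arrays, against 1763 and 3510 on the control arrays, so control array 2 was the highest. Muscle fibre markers summed to 2950 and 4365 in Calcr-cKO, against 5383 and 2493 in control, over 14 genes. No marker was listed at 0.

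No probe set of these 7 genes passed the limma test between Calcr-cKO and control cells. Of the 21 probe sets, 20 passed the filter, and 0 of these had a limma adjusted p under 0.05, while 0 of the 22519 probe sets tested (0%) did. Their smallest adjusted limma p was 0.99999. At an unadjusted limma p under 0.05 there were 0 of the 20, against 0.724% over all probe sets (163 of 22519). Their unadjusted limma p ran from 0.210 to 0.978. The log2 differences, Calcr-cKO minus control, ran from -0.45 to 0.22, with a median of -0.18 against -0.06 over all probe sets tested. A total of 17 were below 0 and 3 above, and 58.9% of all probe sets were below 0. This split followed the scaling: it was 14 below and 6 above after quantile normalization, and 12 and 8 with arrays centred on their median. Both Calcr-cKO arrays lay on the same side of both control arrays for 3 of the 20, or 15%, against 21.4% of all probe sets. All 3 were lower in Calcr-cKO, a direction that 13.5% of all probe sets showed without overlap, while 7.87% were higher without overlap. After quantile normalization 1 of these 3, Timp2 1450040_at, was still lower without overlap, and no other of the 20 was without overlap. With centred arrays only Adamts5 1456404_at did not overlap, in the opposite direction, so none of the 3 held under both scalings. An exact permutation test, 2-sided, cannot go below p = 0.333 with 2 arrays on each side. In sorted bulk cells, fewer cells of a type and less RNA per cell cannot be told apart.

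**Figure D1:**
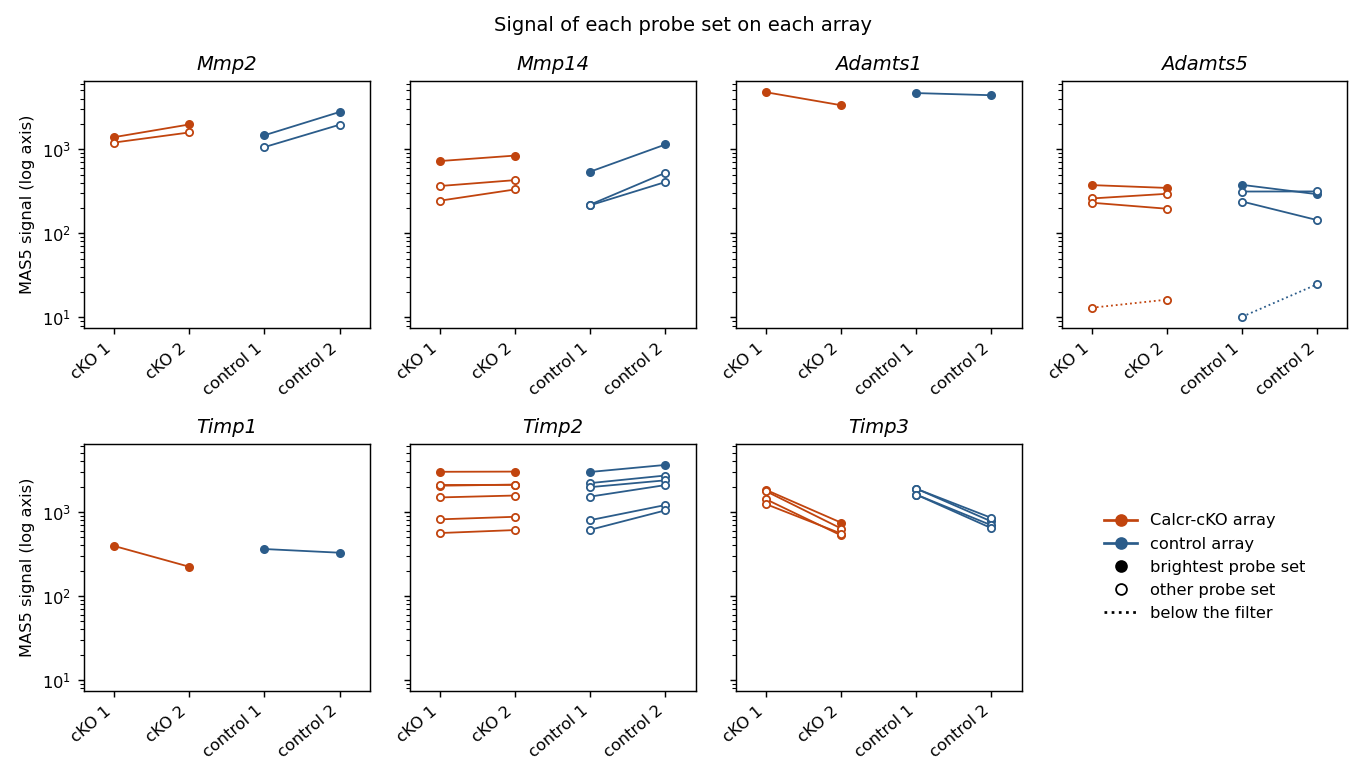
MAS5 signal on a log axis for each probe set of the 7 genes on each array, with Calcr-cKO arrays left of control arrays; filled points are the brightest probe set of a gene, open points its other probe sets, and dotted lines the 1 probe set below the filter. Timp3 was lower on array 2 than on array 1 in both genotypes, and Mmp2 and Mmp14 were higher on array 2, while no gene separated the genotypes on all of its probe sets.

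Among the metalloproteinases, the Mmp2 signal overlapped between the genotypes. On its brighter probe set, 1416136_at, Mmp2 read 1392 and 1970 on the Calcr-cKO arrays, against 1466 and 2772 on the control arrays. Control array 2 was the high one, and the lowest was Calcr-cKO array 1, close to control array 1. Means were 1681 ± 408 in Calcr-cKO and 2119 ± 924 in control cells (SD, n = 2 each). This is a log2 difference of -0.28 with an SE of 0.33, and its 95% interval ran from -1.06 to 0.49. The other Mmp2 probe set, 1439364_a_at, whose suffix marks probes shared by transcripts of the same gene, read 1201 and 1583 against 1060 and 1955. Its log2 difference was -0.06 with an SE of 0.33, so the probe sets of Mmp2 gave the same order of arrays by number but placed Calcr-cKO array 1 on different sides of control array 1.

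Mmp14, the activator of the Mmp2 proenzyme, also overlapped on all 3 of its probe sets. The brightest, 1448383_at, read 724 and 841 on the Calcr-cKO arrays, against 542 and 1140 on the control arrays. Both Calcr-cKO values lay between the control values. The means were 782 ± 82.7 in Calcr-cKO and 841 ± 423 in control cells (SD, n = 2 each), with a log2 difference of -0.01 and an SE of 0.38 (95% interval -0.90 to 0.88). Probe set 1416572_at read 365 and 429 in Calcr-cKO, against 220 and 525 in control, with a log2 difference of 0.22 and an SE of 0.45. The remaining Mmp14 probe set read 245 and 333 in Calcr-cKO, against 216 and 408 in control (log2 difference -0.06, SE 0.41). On all 3 the control arrays spanned a wider range than the Calcr-cKO arrays. The intervals reach to 1.27 on the log2 scale, so 2 arrays a group do not exclude a change of that size in Mmp14.

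For the ADAMTS proteases, differences were small on each probe set and disagreed in sign for Adamts5. Adamts1 read 4760 and 3335 on the Calcr-cKO arrays, against 4653 and 4388 on the control arrays, on its only probe set. Calcr-cKO array 2 was the low one, and the other 3 arrays lay close together. This gave a log2 difference of -0.18 with an SE of 0.19 (95% interval -0.62 to 0.25). Adamts5 had 4 probe sets, of which 1456969_at was below the filter, at 13.0 and 16.3 in Calcr-cKO and 10.2 and 24.9 in control cells. The brightest Adamts5 probe set, 1456404_at, read 374 and 347 in Calcr-cKO, against 377 and 292 in control. It differed by 0.12 on the log2 scale with an SE of 0.32. On 1450658_at both Calcr-cKO arrays, at 260 and 295, lay below both control arrays, at 314 and 315. That difference was -0.18 with an SE of 0.31 on the log2 scale. On 1422561_at the Adamts5 signal was 231 and 196 in Calcr-cKO, against 239 and 143 in control, with a log2 difference of 0.20 and an SE of 0.38. Of the 3 that passed, 1450658_at was thus the only one with a difference below 0, and the only one without overlap. With centred arrays it overlapped, and 1456404_at was higher in Calcr-cKO without overlap.

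Of the inhibitors, Timp2, which takes part in Mmp2 activation, was the gene with the most probe sets, and all 6 gave a log2 difference below 0, from -0.45 to -0.05, although 1454677_at turned to 0.0027 with quantile normalization and 0.045 with centred arrays. These probe sets read 1 gene in the same 4 samples and are not independent. On the brightest, 1433662_s_at, whose suffix marks probes that can match more than 1 transcript, Timp2 read 3001 and 3017 in Calcr-cKO cells, against 2989 and 3623 in control cells. The Calcr-cKO arrays and control array 1 were nearly level there, and control array 2 was higher. This gave a log2 difference of -0.13 with an SE of 0.16 (95% interval -0.51 to 0.25). Both Calcr-cKO arrays lay below both control arrays on 2 of the 6, of which only 1450040_at did so after quantile normalization and neither with centred arrays. Probe set 1420924_at read 561 and 609 in Calcr-cKO, against 614 and 1044 in control, with a log2 difference of -0.45 and an SE of 0.33, the smallest limma p of the 20. Probe set 1450040_at read 2050 and 2113, against 2204 and 2711, with a log2 difference of -0.23 and an SE of 0.19. Between the arrays numbered 1, the 6 log2 differences of Timp2 ran from -0.13 to 0.08, and between those numbered 2 from -0.78 to -0.18. The value on 1420924_at was -0.07 without control replicate 2 and -0.84 without control replicate 1. It did not pass the test over all probe sets.

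Timp1 read 394 and 223 on the Calcr-cKO arrays, against 362 and 327 on the control arrays. Calcr-cKO array 1 was the highest and Calcr-cKO array 2 the lowest, so the control arrays lay inside the Calcr-cKO range. Means were 308 ± 121 in Calcr-cKO and 345 ± 24.6 in control cells (SD, n = 2 each), a log2 difference of -0.22 with an SE of 0.38 (95% interval -1.10 to 0.66). Timp1 lies within the gene Syn1 and Timp3 within Syn3, both of which encode synapsins. These host genes were looked up for their position. The Syn1 probe set read 47.9 to 63.5 and the 3 Syn3 probe sets 7.78 to 55.5 over the 4 arrays, and none of them passed the filter.

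Timp3, the matrix-bound inhibitor, differed by replicate number in both genotypes on all 4 of its probe sets. On 1449334_at it read 1829 and 745 on Calcr-cKO arrays 1 and 2, against 1891 and 770 on control arrays 1 and 2. Arrays numbered 1 were high and arrays numbered 2 low in both genotypes, and within each number the genotypes were nearly level. Between genotypes the log2 difference came to -0.05 with an SE of 0.53 (95% interval -1.28 to 1.19), and it was -0.05 within either number. With the replicate number as a block the SE of this difference was 0.26, although the labels do not say what the number marks. The other 3 Timp3 probe sets had log2 differences from -0.29 to -0.26, and with centred arrays that of 1449334_at turned to 0.045. Over the 4 probe sets, replicate 1 was 2.24 to 2.78 times replicate 2 in Calcr-cKO cells and 2.22 to 2.51 times in control cells. The summed endothelial and pericyte markers were also higher on the arrays numbered 1, in both genotypes, and their part in the Timp3 signal was not tested.

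**Figure D2:**
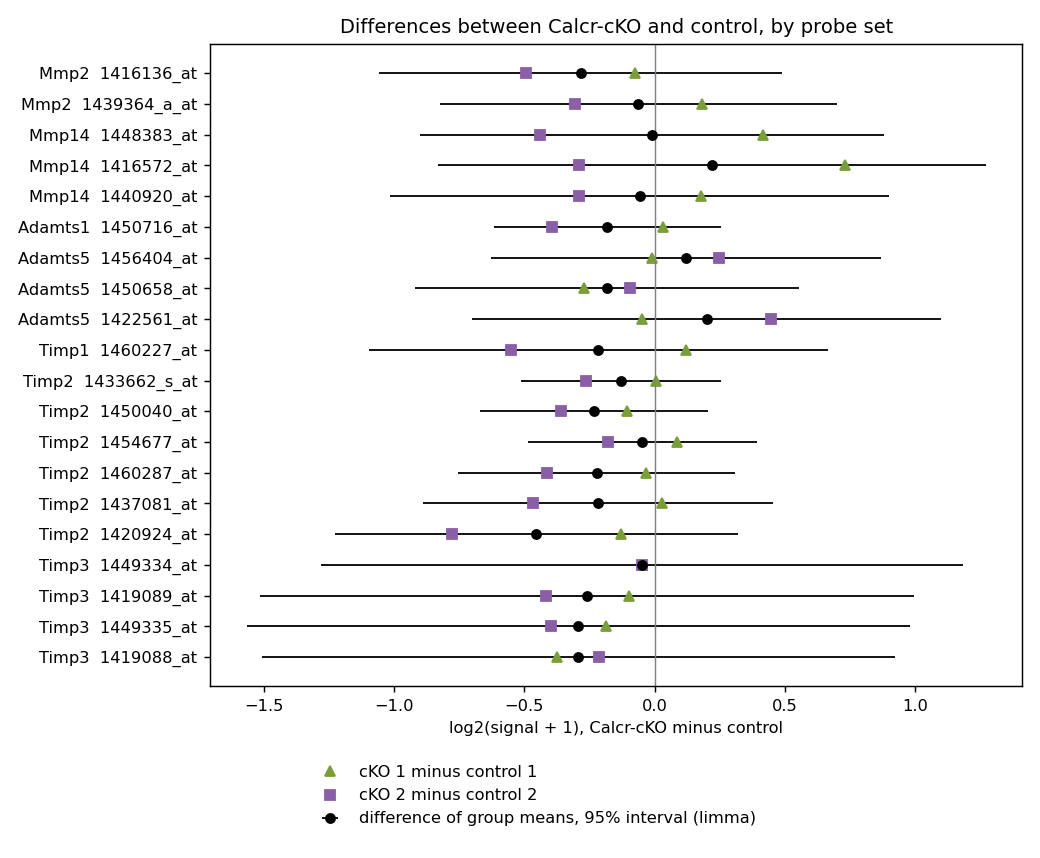
Log2 difference, Calcr-cKO minus control, for the 20 probe sets that passed the filter: black points are differences of group means with 95% intervals from limma, green triangles the difference between the arrays numbered 1 and purple squares that between the arrays numbered 2. All 20 intervals include 0, and those of Timp3 are the widest for a single gene.

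Within the 7 genes, the replicate number thus split the signals in opposite directions. Mmp2 was higher on the arrays numbered 2, by 1.32 to 1.41 times in Calcr-cKO and 1.85 to 1.89 times in control cells over its probe sets. For Mmp14 the same ratio was 1.16 to 1.36 in Calcr-cKO and 1.89 to 2.39 in control cells, and for Timp2 it was 1.0 to 1.09 in Calcr-cKO and 1.20 to 1.70 in control cells. The ratio of array 2 to array 1 was therefore nearer to 1 in Calcr-cKO than in control cells on each probe set of these 3 genes, a difference that was not tested. Adamts1 and Timp1 were instead lower on Calcr-cKO array 2, at 0.701 and 0.566 times Calcr-cKO array 1, and closer together in control cells, at 0.943 and 0.904 times. Over all 10140 genes measured, the median log2 difference of replicate 1 minus replicate 2 was 0.13 in Calcr-cKO and -0.17 in control cells. The satellite cell markers had a median of -0.00018 in Calcr-cKO and -0.61 in control cells in the same difference, and the endothelial markers 3.34 and 3.41. Control array 2, the highest for Mmp2 and Mmp14 on each probe set, also had the highest sums of satellite cell, fibroblast and leukocyte markers (34818, 27321 and 3510). Whether the makeup of the sorted cells differed between the numbers, and its part in these signals, was not tested.

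**Figure D3:**
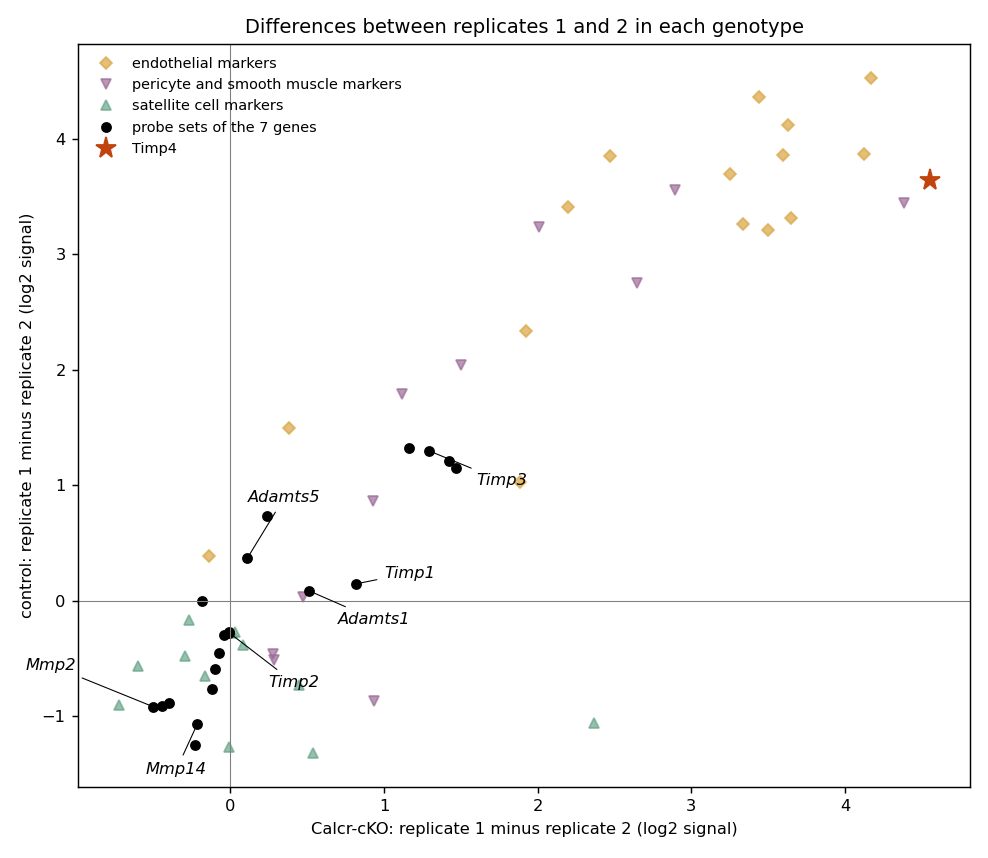
Log2 signal of replicate 1 minus replicate 2 in Calcr-cKO cells (horizontal axis) and in control cells (vertical axis) for the probe sets of the 7 genes, Timp4 and 3 sets of cell type markers. The 4 Timp3 probe sets lie between 1.15 and 1.47 on both axes and Timp4 lies beside the endothelial markers, while Mmp2, Mmp14 and Timp2 lie below 0 on both.

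The other inhibitors were read for comparison. Timp4, the remaining member of the family, read 2603 and 110 on Calcr-cKO arrays 1 and 2, against 2588 and 207 on control arrays 1 and 2. It was 23.7 times higher on replicate 1 in Calcr-cKO and 12.5 times higher in control cells, and its difference between genotypes was -0.45 on the log2 scale with an SE of 1.55. Reck, which encodes a membrane-anchored inhibitor of metalloproteinases, read 188 and 200 in Calcr-cKO, against 211 and 229 in control. Both Calcr-cKO arrays were lower there, with a log2 difference of -0.18 and an SE of 0.33. All 5 inhibitors measured had a value below 0, or 4 of 5 with centred arrays, with a median of -0.18, and 1 of the 5 did not overlap. Without Calcr-cKO replicate 2, 2 of the 5 were below 0. Over all genes the median was -0.04 and 57.3% were below 0, and 21.4% of all probe sets did not overlap.

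Of the Mmp family, 5 of 18 genes on the array passed the filter, all 5 with a value below 0 (4 after quantile normalization and 3 with centred arrays; median -0.22). Without control replicate 2, 2 of the 5 were below 0. With the filter dropped, 12 of the 18 were below 0 and 6 above. Of all genes that passed the filter, 57.3% were below 0. None had an adjusted limma p under 0.05. The collagenase genes Mmp8 and Mmp13, the stromelysin genes Mmp3 and Mmp10 and the gelatinase gene Mmp9 were among the 13 below the filter. Mmp24, which encodes another membrane-type enzyme, read 125 and 131 in Calcr-cKO, against 193 and 261 in control, without overlap. Its log2 difference was -0.81 with an SE of 0.35, and it did not pass. Mmp11 and Mmp19 overlapped, at -0.22 and -0.06. Of the ADAMTS and ADAMTS-like genes, 11 of 21 passed the filter, with 5 values above 0 and 6 below (median -0.10). None of them separated the genotypes on its brightest probe set, although Adamts5 did so on 1450658_at. Apart from Adamts1 and Adamts5, the smallest p belonged to Adamtsl1 (-0.55), Adamts15 (-0.52), Adamtsl4 (-0.34) and Adamts10 (-0.35).

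Among the related ADAM genes, 7 of 10 were measured, 4 above and 3 below 0 (median 0.04). Adam12, which encodes meltrin alpha, known from fusing myoblasts, read 1348 and 1260 in Calcr-cKO, against 764 and 1220 in control. Adam19 read 185 and 149, against 130 and 116, so both genes were higher without overlap (log2 differences 0.43 and 0.43, SE 0.29 and 0.36). Adam9 was lower without overlap (-0.18), and Adam22 overlapped (-0.24). Of the 7, 2 were thus higher and 1 lower without overlap, against 7.87% and 13.5% of all probe sets. None had an adjusted limma p under 0.05.

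Genes that activate or clear the enzymes gave 8 of 12 values below 0, with a median of -0.31, and 4 of the 12 were lower without overlap, against 13.5% of all probe sets. Without control replicate 2 the median was -0.04, and without Calcr-cKO replicate 2 it was -0.07. Pcsk5, a proprotein convertase gene, read 246 and 137 in Calcr-cKO, against 513 and 490 in control. Its log2 difference was -1.44 with an SE of 0.38, and its adjusted limma p was 0.99999. Furin, the convertase that cuts the Mmp14 proenzyme, read 1177 and 1009, against 1388 and 1432 (log2 difference -0.37, SE 0.22). Thbs2, whose product binds Mmp2 protein and aids its uptake into cells, read 613 and 400, against 846 and 960 (log2 difference -0.86, SE 0.31). The plasminogen activator gene Plat was also lower on both arrays (-0.36). These 4 genes are those without overlap, and none passed the limma test over all probe sets. Overlap was read here without further scaling, and Calcr-cKO array 2 had the lowest median signal (57.9).

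Matrix substrates gave 13 of 18 values above 0, with a median of 0.09, but 9 of 18 and a median of -0.017 without control replicate 1. Col1a2, a chain of type I collagen, read 1558 and 3023 in Calcr-cKO, against 1072 and 1288 in control (log2 difference 0.88, SE 0.32). Hspg2, which encodes the basement membrane proteoglycan perlecan, read 2063 and 2102, against 1453 and 1962 (0.30). Col4a1 and Col1a1 overlapped between genotypes (0.19 and 0.41), and versican gene Vcan, a substrate of the Adamts1 and Adamts5 enzymes, read 402 and 207, against 305 and 550 (-0.50). Of the 18, 4 were higher and 1 lower without overlap, against 7.87% and 13.5% of all probe sets, and 0 passed the limma test.

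**Figure D4:**
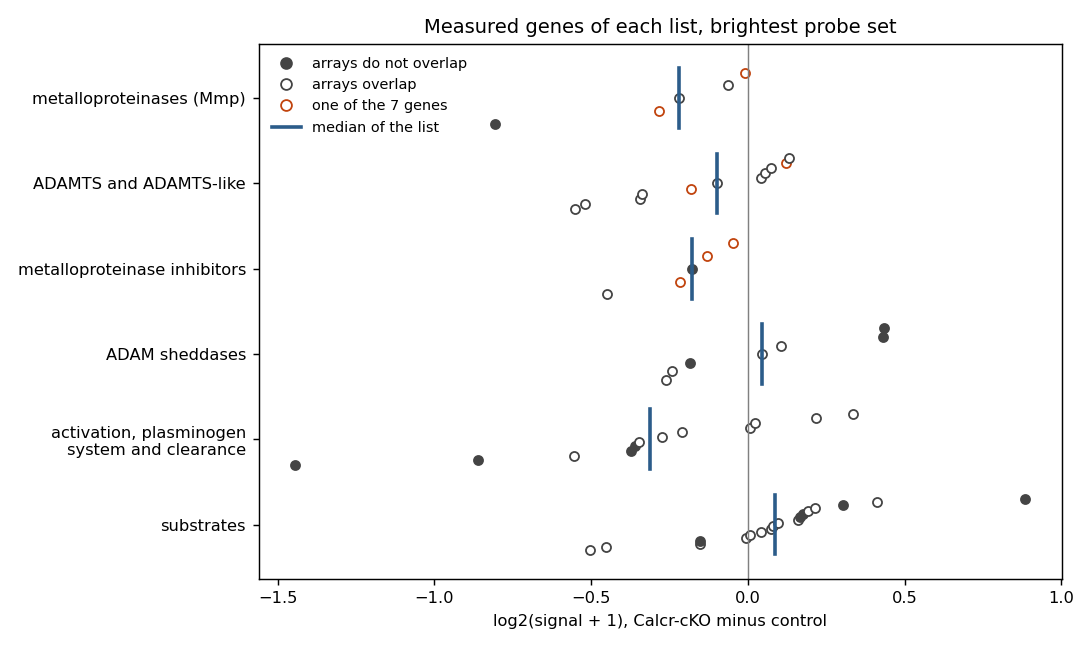
Log2 difference, Calcr-cKO minus control, of each measured gene in 6 lists of proteases, inhibitors and their partners; filled points are genes whose arrays do not overlap between genotypes, red points the 7 genes, and blue bars list medians. The 7 genes lie between -0.28 and 0.12, and the genes furthest from 0 are Pcsk5, Thbs2, Mmp24 and Col1a2.

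The genes whose levels over the 4 arrays were most like each of the 7 were found by Euclidean distance between log2 signals after each probe set's mean was subtracted, over 10140 genes. Nearest to Mmp2 were Trappc5, Wdr54 and Junb, at distances of 0.04 to 0.07. Nearest to Mmp14 were AI597479, L3hypdh and the clock gene Per1. Per1 read 754 and 886 in Calcr-cKO, against 542 and 1181 in control. Nearest to Adamts1 were Jak1, Ankrd17 and Iqcb1, and nearest to Adamts5 were Nufip2, Lrrk2 and Pxk. Nearest to Timp1 were Gspt1, Slc12a4 and Riox2, and nearest to Timp2 were Pcbp2, Fam50a and Bloc1s6. For Timp3 they were Ccnyl1, Gbp3 and Bcr, at distances of 0.04 to 0.10. These distances describe 4 arrays and carry no test.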

How the data were processed

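The deposited values are MAS5 signal intensities on a linear scale, 1 per probe set and array, made by the authors, per the submitters' processing notes. The sources used here give neither scaling target nor detection calls. The platform's annotation gives 1 symbol to 34945 of 45101 probe sets, several to 932 and none to 9160, beside 64 AFFX controls. Only probe sets with 1 symbol were named.

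Signals were analysed as log2(signal + 1) without further scaling. AFFX probe sets were left out, and the 22519 at or above the median signal of 63.9 were kept. Groups were compared with limma 3.58.1 in R 4.3.3 (lmFit, eBayes with an intensity trend, no block), 2-sided, with Benjamini-Hochberg adjustment over all kept probe sets at 0.05 and 95% intervals from that fit. Differences on this scale understate changes of low signals, and the number of arrays limits the precision. The steps were tested on simulated arrays. Other genes are given by their brightest kept probe set, and their overlap was read without further scaling. From each of 6 lists, up to 4 further genes with the smallest p are named, with others as examples; 12 listed genes had no such probe set and were not analysed here. Members and lists were chosen with earlier results of these data known. The alternatives were arrays centred on their median, quantile normalization, a pseudocount of 32, the filter dropped or raised to the 75th percentile, no trend in eBayes, the replicate block, each array left out, and the mean over probe sets.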

Additional observations from a re-analysis of the deposited data

How the results depend on the processing

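No member probe set had an adjusted limma p under 0.05 under any of the alternatives run; over 226 member values the adjusted p ran from 0.999855 to 0.999995, and 33 changed sign, 9 of them under another scaling or summary of probe sets and the others when 1 array was left out. The Mmp14 value of probe set 1448383_at was 0.045 after quantile normalization, 0.082 with arrays centred on their median and 0.051 as the mean over probe sets. Those of Mmp14 1440920_at and Timp2 1454677_at were 0.014 and 0.0027 after quantile normalization, and 0.036 and 0.045 when centred. Centring also gave Mmp2 1439364_a_at 0.030 and Timp3 1449334_at 0.045. Centring moved the median of all genes to 0.05 and quantile normalization to 0.02.

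Leaving out 1 array gave, as lowest and highest values, Mmp2 -0.74 to 0.18 (1416136_at) and -0.50 to 0.38 (1439364_a_at), Mmp14 -0.55 to 0.52 (1448383_at), -0.41 to 0.85 (1416572_at) and -0.51 to 0.40 (1440920_at), Adamts1 -0.44 to 0.075, Adamts5 -0.064 to 0.30 (1456404_at) and -0.17 to 0.57 (1422561_at), and Timp1 -0.62 to 0.19. Timp2 ran from -0.27 to 0.0099 (1433662_s_at), -0.18 to 0.087 (1454677_at), -0.45 to 0.0041 (1460287_at) and -0.52 to 0.080 (1437081_at), and Timp3 from -0.70 to 0.60 (1449334_at), -0.99 to 0.48 (1419089_at), -1.01 to 0.42 (1449335_at) and -0.96 to 0.37 (1419088_at). List medians ran from -0.74 to 0.18 for Mmp genes, -0.17 to 0.12 for ADAMTS genes, -0.62 to 0.19 for inhibitors, -0.19 to 0.35 for ADAM genes, -0.41 to -0.039 for activation and clearance genes and -0.017 to 0.17 for substrates. The ADAM median was also 0.14 when centred, -0.21 without a filter and -0.091 as the mean over probe sets, and the ADAMTS median was -0.30 without a filter. The cause was not tested. In these fits the remaining array of a group took its spread from the other genotype.

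Over all probe sets, limma called 0, and 163 at an unadjusted p under 0.05; the latter with at least 2-fold gave 81. The labels do not say what a replicate number marks, and 2 pairs cannot settle it; replicate 1 minus replicate 2 correlated at 0.43 between genotypes across probe sets, which are not independent. With the number as a replicate block limma called 5, of Slc15a2, Laptm5, Pisd-ps3, Ilkap and 1 unnamed probe set, none a member. Leaving out 1 array gave 0 to 5 calls: without Calcr-cKO replicate 1 they were 1 probe set each of Chrdl2 and Ilkap, 2 of Lyz1 and 1 unnamed, and without control replicate 1 the 1 unnamed probe set also called with the block.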
